A study of Mus musculus with 2 samples.

Results

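The cells described here are Ly6c2 and Chil3 monocytes of tumors grown from RM-1, a mouse prostate cancer cell line. They were picked by the transcripts counted in each droplet barcode. A barcode was chosen if it had at least 1000 unique molecular identifiers (UMIs, each standing for 1 captured transcript) and at most 20% mitochondrial UMIs. It also had to hold at least 5 UMIs of Ly6c2 and Chil3 together and at least 3 of Lyz2. At most 2 UMIs of the complement genes C1qa, C1qb and C1qc, under 3 of the neutrophil genes Retnlg and Csf3r, at most 1 of the T cell genes Cd3d, Cd3e and Cd3g, and at most 2 of the keratins Krt8 and Krt18 were allowed. These limits chose 1156 of the 22524 barcodes that met the UMI and mitochondrial limits. Of these cells, 387 came from the vehicle library and 769 from the enzalutamide (ENZ) library. The genes of the rule therefore describe how the cells were found and are not results.

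Droplet single-cell RNA-seq was run on RM-1 tumors of 1 mouse given vehicle and of 1 mouse given ENZ, an androgen receptor inhibitor, with 1 library each. The labels give the genotype as WT for both, and the study's methods give C57BL/6 mice injected with RM-1 cells in the prostate. The tumor cells descend from a single cancer cell line and the immune cells are those of the host mouse, and the age of the mice is not given in the sources used here. Immune cells were enriched during sorting and stained for CD45, so shares of cells also depend on that step. The vehicle library held 170830346 UMIs and the ENZ library 162030149. The chosen cells held 2005106 UMIs in vehicle (median 4766 per cell) and 4123362 in ENZ (median 5046). Levels are given as CPM (counts per 1e6), for which the UMIs of a gene in all chosen cells of a library were added and divided by the total of those cells. Because each condition rests on 1 mouse, nothing was tested, each 95% interval covers counting error only, and mouse, library and treatment cannot be told apart.

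Ly6C-high monocytes leave the bone marrow through the chemokine receptor CCR2, enter inflamed tissue and tumors, and mature there into macrophages or monocyte-derived dendritic cells. In tumors they can carry inflammatory programs (interleukin 1, prostaglandin synthesis) or programs that restrain T cells (interleukin 10, PD-L1). Chil3 encodes the secreted chitinase-like protein Ym1, made by some monocytes and by macrophages exposed to type 2 cytokines, and Ccl24 encodes eotaxin-2, a chemokine that attracts eosinophils through CCR3.

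The chosen cells had the transcripts of monocytes beyond those of the rule. Cd14, the co-receptor for lipopolysaccharide, had 1419 CPM in vehicle and 1350 CPM in ENZ and was found in 87.6% of cells of each library. Ccr2 had 179 CPM and 188 CPM, a ratio of 1.05 (95% interval 0.925 to 1.19). Plac8, Vcan, Ms4a6c and S100a4 were also present in both libraries, at 4074, 909, 553 and 1695 CPM in vehicle. Ccl24 was not a marker of all these cells: it was found in 43 vehicle cells (11.1%) and 301 ENZ cells (39.1%). Markers of nonclassical monocytes were low, and 3 of 14 had a mean of at least 50 CPM.

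Markers of lymphocytes, cancer cells and conventional dendritic cells were low in the chosen cells, and those of macrophages and neutrophils were higher. The rule itself limits Cd3, keratin and C1q genes, so the sums for T cells and cancer cells leave its genes out. The other 6 T cell markers had 12.5 CPM in vehicle and 9.46 CPM in ENZ, with Cd8b1 at 0 in both. The 6 B cell markers had 15.0 and 7.28 CPM, and the 7 markers of conventional dendritic cells had 38.9 and 30.6 CPM. The other 4 cancer cell markers had 38.9 and 39.05 CPM, the 6 NK cell markers 36.9 and 11.4 CPM, and the 4 endothelial markers 49.9 and 78.3 CPM, most of it Pecam1, which myeloid cells also make. The 4 markers of plasmacytoid dendritic cells summed to 376 and 299 CPM, with 2 past the filter, Bst2, which interferon also induces, as the most abundant, and Siglech at 0 in both libraries. The 5 fibroblast markers had 70.8 and 81.7 CPM, the 5 mast cell or basophil markers 3.99 and 2.67 CPM and the 4 erythroid markers 4.99 and 3.88 CPM. Of 8 macrophage markers 4 passed the filter of 50 CPM, and the 5 outside the rule summed to 1067 and 1183 CPM, with Apoe as its most abundant gene. The 7 neutrophil markers outside the rule summed to 405 and 1384 CPM and are described with the S100 genes further on. No barcode sequence was shared between the chosen cells of the 2 libraries, and 39 were shared among all barcodes that met the UMI and mitochondrial limits. Scrublet, which scores barcodes against simulated doublets, marked 5 of the vehicle cells (1.29%) and 13 of the ENZ cells (1.69%).

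Cells just inside and just outside the limits are given as a description. In vehicle, the 47 cells with exactly 5 UMIs of Ly6c2 and Chil3 had 3723 CPM of Plac8 and 175 CPM of Ccr2, and the 68 cells left out with 4 UMIs had 3256 and 159 CPM. In ENZ, 48 cells just inside had 1936 CPM of Plac8 and 195 CPM of Ccr2, and 56 cells just outside had 1791 and 210 CPM. At the C1q limit, 17 vehicle cells with 2 UMIs had 4280 CPM of Plac8 and 10 cells with 3 UMIs had 3321 CPM. In ENZ the order was the other way, with 1664 CPM in 24 cells just inside and 1925 CPM in 20 cells just outside. The limit on Ly6c2 and Chil3 alone left out 1062 vehicle cells and 497 ENZ cells that met all other limits.

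Other myeloid gates were set beside the monocytes, each with the same limits for UMIs, keratins and Cd3 genes. C1q monocyte-macrophages (110 vehicle and 177 ENZ cells) met every limit but had at least 3 C1q UMIs, C1q macrophages (991 and 427) had at least 10 C1q UMIs and under 5 of Ly6c2 and Chil3, and neutrophils (782 and 296) had at least 3 UMIs of Retnlg and Csf3r and at least 10 of S100a8 and S100a9. Genes were counted where the ratio of monocytes to the gate was at least 2, or at most 0.5, in both libraries. Of 3040 genes, 10 (0.329%) were higher and 33 (1.09%) lower in the monocytes than in the C1q monocyte-macrophages. Against the C1q macrophages 60 of 3105 genes (1.93%) were higher and 100 (3.22%) lower. Against neutrophils 574 of 2896 genes (19.8%) were higher and 484 (16.7%) lower. By this count the fewest genes differed from the C1q monocyte-macrophages and the most from the neutrophils. The gates set part of this order, since the C1q monocyte-macrophages met every limit of the rule but that on C1q.

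Transcripts of blood monocytes separated the chosen cells from the C1q macrophages. Hp, the hemoglobin-binding protein haptoglobin, had 297 CPM in vehicle monocytes and 26.8 CPM in vehicle C1q macrophages, a ratio of 11.1 (9.51 to 12.9), and the ENZ ratio was 5.78 (4.86 to 6.92). Plac8 was higher in the monocytes by 11.05 times in vehicle and 10.4 times in ENZ, and Vcan, the matrix proteoglycan versican, by 6.09 and 6.02 times. Of 25 classical monocyte genes 12 were higher in the monocytes and of 24 macrophage maturation genes 14 were lower. Over all 3105 genes 1.93% were higher and 3.22% lower. These gates lie on opposite sides of the limits for Ly6c2 with Chil3 and for C1q. Genes that go along with those markers were therefore set apart in part by that choice. Mrc1, the mannose receptor CD206, was lower, at 59.8 CPM in vehicle monocytes against 600.1 in C1q macrophages (ratio 0.0997), and at 115 against 1244 CPM in ENZ (ratio 0.0924). Ccl8, a chemokine of resident macrophages, had a ratio of 0.0403 in vehicle and 0.0111 in ENZ, and the tetraspanin Cd81 0.0480 and 0.0704.

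The C1q monocyte-macrophages lay between these cell sets for most of those genes. Hp was 3.19 times higher in vehicle monocytes than in them and 2.82 times in ENZ, and Plac8 2.46 and 2.42 times. Pf4, a platelet chemokine that tissue macrophages also make, had ratios of 0.131 and 0.0868, and Selenop, a selenium transport protein, 0.177 and 0.191. In vehicle, Pf4 and Ccl8 did not lie between. Pf4 had 579 CPM in the C1q monocyte-macrophages and 549 CPM in the C1q macrophages, and Ccl8 280 and 223 CPM. Against neutrophils, the monocytes were higher in Ms4a4c (34.8 and 21.01 times), Vcan (18.4 and 13.6) and Ms4a6c (16.9 and 11.5). They were lower in Stfa2l1 (0.00380 and 0.00503) and G0s2 (0.0103 and 0.0132). S100a8 and S100a9 chose the neutrophils and are not compared with them.

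**Figure D1:**
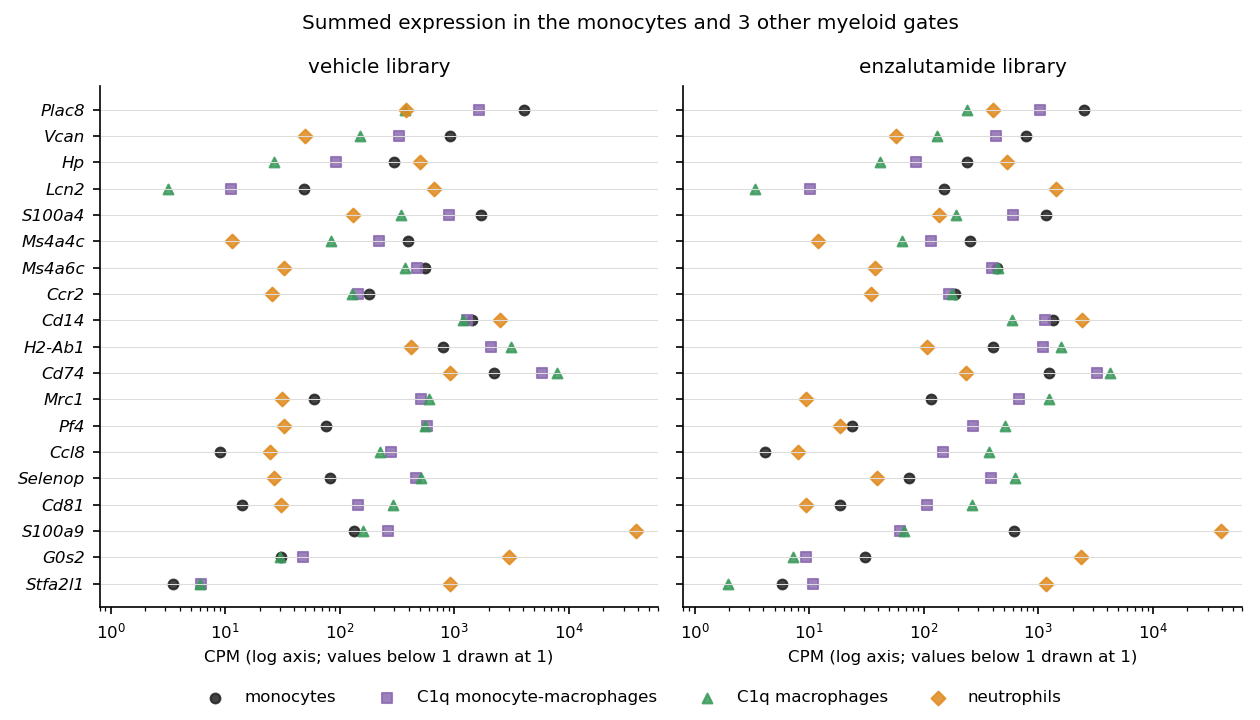
CPM (log axis) of 19 genes in the monocytes (circles), C1q monocyte-macrophages (squares), C1q macrophages (triangles) and neutrophils (diamonds) of each library, 1 point per gate and gene. Hp, Vcan and Plac8 of the monocytes lie to the right of the C1q macrophages, and Mrc1, Ccl8 and Cd81 to the left, in both libraries; S100a9 was used to choose the neutrophils.

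The chosen cells made up 3.16% of vehicle barcodes (387 of 12253, 2.86% to 3.48%) and 7.49% of ENZ barcodes (769 of 10271, 6.99% to 8.01%). The share was higher in ENZ, by a rule that counts Chil3 and Ly6c2. With at least 5 UMIs of Vcan, Ms4a6c and Ccr2 in place of Ly6c2 and Chil3, a gate chosen after seeing the data, 670 vehicle cells (5.47%, 5.07% to 5.89%) and 700 ENZ cells (6.82%, 6.34% to 7.32%) were found. Of these, 266 vehicle and 484 ENZ cells were also chosen by the rule, so the make-up of this gate differed between libraries. With at least 5 UMIs of Ly6c2 alone there were 158 (1.29%) and 221 (2.15%). All 3 shares were higher in ENZ, by very different amounts, and the enrichment step acts on all of them.

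The values of Chil3, Ly6c2 and Lyz2 in the chosen cells were set in part by the rule and are given as a description. Chil3 had 1538 CPM in vehicle and 3654 CPM in ENZ, with a median of 6 UMIs per cell (highest 34) and 15 (highest 149). Ly6c2 had 966 CPM in vehicle and 664 CPM in ENZ, with medians of 3 and 2 UMIs per cell. Lyz2, the myeloid lysozyme, had 7456 and 4243 CPM. In the gate of Vcan, Ms4a6c and Ccr2, where Chil3 and Ly6c2 chose no cell, Chil3 had 666 CPM in vehicle and 2518 CPM in ENZ, a ratio of 3.78 (3.62 to 3.95), and Ly6c2 423 and 528 CPM, a ratio of 1.25 (1.17 to 1.33). In this gate both genes were higher in ENZ, whereas Ly6c2 was lower in ENZ among the cells it had helped to choose.

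**Figure D2:**
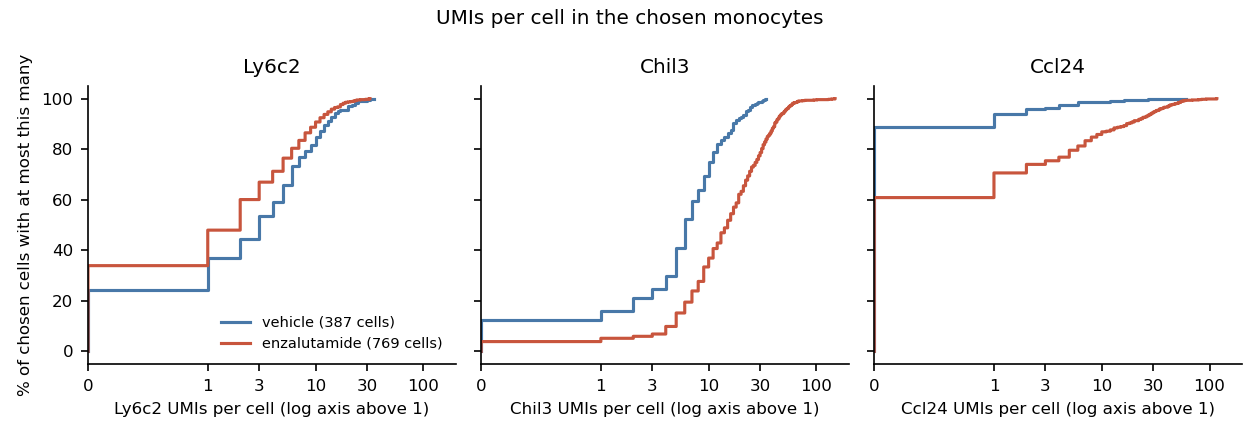
Cumulative share of the chosen cells (vertical axis, %) by their UMIs of Ly6c2, Chil3 and Ccl24 (horizontal axis, logarithmic above 1), for 387 vehicle cells and 769 ENZ cells. The ENZ curve lies to the right for Chil3 and Ccl24 and slightly to the left for Ly6c2.

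Chil3 and Saa3, which encodes the acute phase protein serum amyloid A3, are genes whose promoters could be read from RefSeq (GRCm38.p6, minus strand, 300 bases each, the last 50 of them after the start of the gene in RefSeq, which for Saa3 differs from the start in GENCODE). The promoter of Ccl24 was not analysed here. Saa3 is shown because its transcript was higher in ENZ, and Chil3 because it is a gene of the rule that chose the cells. The capitals mark the motif matches found.
Chil3, chr3:106167515-106167814: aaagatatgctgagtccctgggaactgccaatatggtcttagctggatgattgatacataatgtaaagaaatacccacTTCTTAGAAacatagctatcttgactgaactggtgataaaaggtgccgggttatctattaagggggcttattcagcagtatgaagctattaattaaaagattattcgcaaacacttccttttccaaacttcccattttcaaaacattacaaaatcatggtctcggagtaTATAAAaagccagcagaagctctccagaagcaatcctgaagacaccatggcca
Saa3, chr7:46715627-46715926: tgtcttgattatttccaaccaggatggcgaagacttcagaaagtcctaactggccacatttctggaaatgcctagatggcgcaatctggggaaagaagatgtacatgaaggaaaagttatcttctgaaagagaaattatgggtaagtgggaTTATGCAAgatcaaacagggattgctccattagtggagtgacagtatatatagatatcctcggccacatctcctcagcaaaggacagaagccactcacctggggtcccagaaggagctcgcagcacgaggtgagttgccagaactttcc
Motifs were searched on both strands. The letters TATAAA are in capitals in Chil3 at bases 248 to 253, so they begin 3 bases before the annotated start, closer than a TATA box usually lies, and are in 13.6% of 32851 promoters. A C/EBP match (TTGCNNAA, read on the other strand) is in capitals in Saa3 at bases 152 to 159 and is in 10.8% of promoters. The letters TTCNNNGAA, the STAT motif with a spacer of 3 bases, are in capitals in Chil3 at bases 79 to 87 and are in 8.30% of promoters. Neither window held the STAT motif with a spacer of 4 bases (6.95% of promoters), the AP-1 letters TGANTCA (7.81%) or the NF-kappaB consensus (8.46%). A match is a stretch of letters, and no binding was measured.

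Between the libraries, most transcripts of the monocytes kept their level. Of 2976 genes with a mean of at least 50 CPM, the genes of the rule left out, 196 (6.59%) were at least 1.5 times higher in ENZ and 147 (4.94%) at most 0.667 times the vehicle level, and the median log2 ratio was 0.00. Among the 20 genes farthest from 1 by the nearer bound of the interval, those higher in ENZ included Tmem267, Ccl24, Saa3, S100a9, S100a8, Olr1, Cpd, Gm19951 and Mmp12. Those lower were Htr7, Osgep, Plxdc1, H2-Eb1, Churc1, H2-Ab1, Gm11290, Nrg1, H2-Aa and Tnfaip6.

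**Figure D3:**
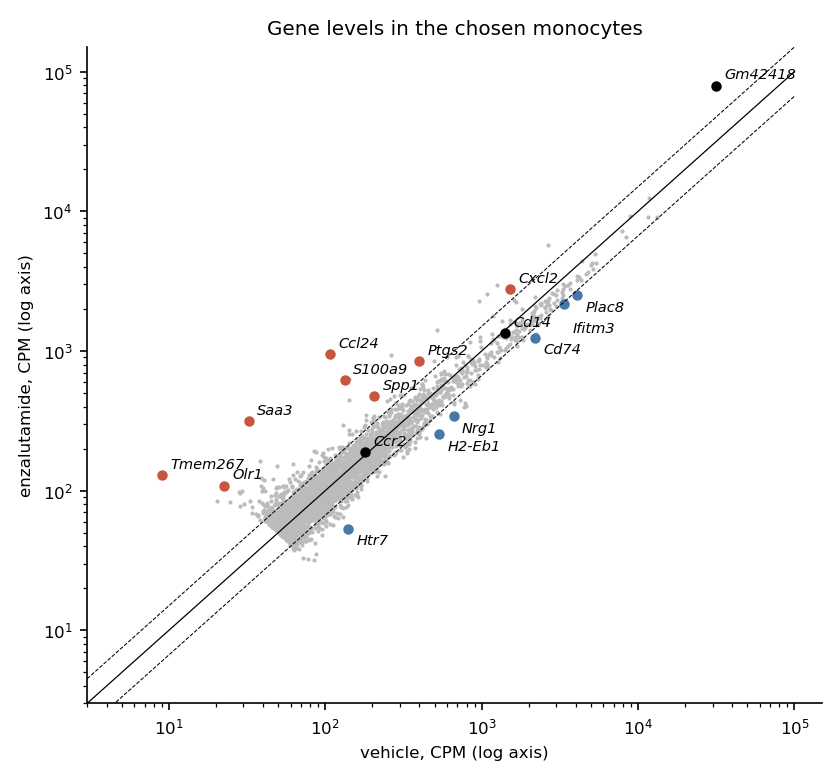
CPM of each gene with a mean of at least 50 CPM in the chosen cells, vehicle (horizontal) against ENZ (vertical), both axes logarithmic, with lines of equality and of 1.5-fold difference; genes of the rule are not drawn. Ccl24 and Saa3 lie above the band, Cd74, H2-Eb1 and Plac8 below it, and Cd14 and Ccr2 near the line of equality.

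Among the chemokines, Ccl24 (ENSMUSG00000004814, chromosome 5 from 135569937 to 135573049, GRCm38) differed most. It had 107 CPM in vehicle (93.4 to 123) and 952 CPM in ENZ (922 to 982). ENZ was higher by 8.88 times (7.73 to 10.2). The size depended on how the cells were chosen: it was 4.38 (4.01 to 4.78) in the gate of Vcan, Ms4a6c and Ccr2 and 6.86 (4.95 to 9.75) with Ly6c2 alone, and the log2 ratio ran from 2.13 to 4.34 over all alternatives. After each cell was thinned to 1000 UMIs, 6.20% of vehicle and 24.8% of ENZ monocytes had a Ccl24 UMI, against 0% and 0.893% of T cells, which should lack it, and 12.01% and 29.0% of C1q macrophages. The monocytes thus lay above the T cells in both libraries. By share they lay below the C1q macrophages in both, but by level only in vehicle: C1q macrophages had 238 CPM in vehicle and 862 CPM in ENZ, where the monocytes were at 1.10 times that level (1.05 to 1.16).

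Of 10 chemokine genes past the filter, 5 were past the fold upward and 0 downward, with a median log2 ratio of 0.58. That median rests on the filter: it was 0.06 with a mean of at least 20 CPM and -0.11 with no filter. The neutrophil attractants of the CXC family were all among them: Cxcl2 had 1514 and 2760 CPM (ratio 1.82, 1.75 to 1.90), Cxcl1 123 and 206 CPM (1.67, 1.45 to 1.94), and Cxcl3 50.4 and 90.9 CPM (1.81, 1.45 to 2.27). Ccl3, which attracts monocytes and T cells, had 141 and 220 CPM (1.56). In the gate of Vcan, Ms4a6c and Ccr2 the log2 ratio of Cxcl2 was 0.52, short of the fold. Ccl2, the ligand of CCR2, had 301 and 295 CPM, a ratio of 0.978 (0.887 to 1.08), and Ccl6 and Ccl9 had ratios of 0.848 and 0.856. The chemokine Pf4 fell just short of the filter and was lower in ENZ, at 75.8 CPM in vehicle and 23.5 CPM in ENZ. A single vehicle cell held 63 of the 152 vehicle Pf4 UMIs. No chemokine receptor of 5 was past the fold, and the highest ratio was that of Ccrl2, at 1.45 (1.16 to 1.83).

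Inflammatory genes were higher in ENZ as a list, though not in its most abundant member. Of 17 genes past the filter 7 were past the fold upward and 0 downward, with a median log2 ratio of 0.45. Over the alternatives that median ran from 0.41 to 0.71. Saa3 (ENSMUSG00000040026, chromosome 7 from 46711998 to 46715700) had 32.4 CPM in vehicle and 313 CPM in ENZ. ENZ was higher by 9.66 times (7.53 to 12.6), and 16 vehicle cells and 180 ENZ cells held a Saa3 UMI. One ENZ cell held 176 of the 1291 UMIs. The Saa3 ratio was 17.5 (13.9 to 22.4) in the gate of Vcan, Ms4a6c and Ccr2 and 14.2 (9.69 to 21.5) with Ly6c2 alone. Acod1, which makes the antimicrobial metabolite itaconate, had 29.4 and 98.9 CPM, a ratio of 3.36 (2.55 to 4.50). Il1a had 38.9 and 107 CPM (2.76), and Ptgs2, the inducible cyclooxygenase of prostaglandin synthesis, 399 and 850 CPM (2.13, 1.97 to 2.30). The cytokine antagonist Il1rn (1.70), the feedback inhibitor Tnfaip3 (1.91) and Tnf (1.65) were also past the fold. Il1b, the most abundant of the list, had 2628 CPM in vehicle and 2204 CPM in ENZ and was lower in ENZ, with a ratio of 0.839 (0.811 to 0.868).

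Genes linked with suppression of T cells were higher in part. Of 22 past the filter 8 were past the fold upward and 0 downward, with a median log2 ratio of 0.33; Ptgs2 and Mrc1 also stand in other lists. Spp1, the matrix protein osteopontin, had 205 and 477 CPM (2.32, 2.09 to 2.59), Cd274, which encodes PD-L1, 96.3 and 185 CPM (1.92, 1.64 to 2.26), and Il10 32.9 and 84.9 CPM (2.58, 1.98 to 3.41). In the gate of Vcan, Ms4a6c and Ccr2 the Spp1 ratio was 1.28 (1.20 to 1.37), short of the fold. In the cells with at least 5 Ly6c2 UMIs the Il10 ratio was 0.961 (0.601 to 1.55), so the higher Il10 was not seen among the cells with most Ly6c2. The galectins Lgals3 and Lgals1 had ratios of 0.695 and 0.729, and Tgfb1 1.03.

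Antigen presentation genes were lower in ENZ. Of 8 past the filter 0 were past the fold upward and 6 downward, with a median log2 ratio of -0.83. H2-Ab1, a chain of MHC class II, had 788 CPM in vehicle (750.1 to 828) and 402 CPM in ENZ (383 to 422). ENZ was lower, with a ratio of 0.510 (0.476 to 0.547). H2-Eb1 had 535 and 254 CPM (0.476), H2-Aa 779 and 425 CPM (0.546), and Cd74, the invariant chain that guides class II molecules, 2205 and 1248 CPM (0.566, 0.544 to 0.590). The peptide loading genes H2-DMb1 and H2-DMa had ratios of 0.562 and 0.654. All 6 genes downward belong to the class II pathway; the costimulatory genes Cd80 and Cd86 had ratios of 0.796 and 1.005. With at least 10 UMIs of Ly6c2 and Chil3 the log2 ratios of Cd74 and H2-Aa were -0.47 and -0.54, short of the fold, and with Ly6c2 alone they were -1.84 and -2.24. The other gates were lower too: the Cd74 ratio was 0.539 in C1q macrophages, 0.256 in neutrophils and 0.369 in T cells. In barcodes of at least 10 and fewer than 500 UMIs, below the limit for chosen cells, Cd74 had 1534 and 673 CPM. The part of free RNA in these barcodes was not tested. With the free RNA profile subtracted the median of the list was -0.82. That step took 53.6 UMIs from each vehicle cell and 68.2 from each ENZ cell, whose medians were 4766 and 5046 UMIs. It could therefore hardly move the median. In T cells H2-Ab1 had 298 CPM in vehicle and 99.6 CPM in ENZ, and the part of free RNA in the class II values was not tested.

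The list of classical monocyte genes was split. Of 25 past the filter 4 were past the fold upward and 5 downward, with a median log2 ratio of -0.22, which turned to 0.18 in the gate of Vcan, Ms4a6c and Ccr2. Ifitm6 (ratio 0.576), Plac8 (0.613, 0.595 to 0.631), Ms4a4c (0.638), Ifitm3 (0.647) and Ms4a6b (0.652) were the genes downward. Plac8 had 4074 CPM in vehicle and 2495 CPM in ENZ and Ifitm3, an interferon-inducible restriction factor, 3372 and 2181 CPM. Both were between the limits in the other gates, Plac8 at 0.838 and Ifitm3 at 0.785 with Vcan, Ms4a6c and Ccr2, and 0.749 and 0.741 with Ly6c2 alone. Upward were Ccl24, the matrix protein Fn1 (496 and 850 CPM, ratio 1.71), the transglutaminase F13a1 (1.59) and Csf1r, the receptor for macrophage colony-stimulating factor (1.55). Vcan, Cd14 and Ccr2 were between the limits, at 0.861, 0.951 and 1.05.

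Of 18 macrophage maturation genes, 4 were past the fold upward and 0 downward. Mmp12, the macrophage elastase, had 20.4 and 83.7 CPM (4.09, 2.95 to 5.80), Mmp14 28.4 and 77.4 CPM (2.72), Mrc1 59.8 and 115 CPM (1.92, 1.57 to 2.37) and Adgre1, which encodes F4/80, 85.3 and 129 CPM (1.51). One ENZ cell held 58 of the 345 Mmp12 UMIs, and in the gate of Vcan, Ms4a6c and Ccr2 the log2 ratio of Mmp12 was 0.11. In C1q monocyte-macrophages and C1q macrophages Mmp12 was lower in ENZ, at 0.522 (0.424 to 0.641) and 0.726. Ratios of other maturation genes lay near 1, among them Apoe (1.02), Ctss (1.03) and Trem2 (0.928). Of 19 myeloid transcription factors 3 were past the fold upward: Id2 (81.3 and 166 CPM, ratio 2.05), Bhlhe40 (105 and 200 CPM, 1.91) and Hif1a (315 and 483 CPM, 1.53). Of 16 hypoxia and glycolysis genes 1, Ndrg1, was past the fold (1.53), and the median log2 ratio was 0.11.

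Of 15 interferon-stimulated genes 1 was past the fold upward (Oasl1, 2.15) and 2 downward (Zbp1, 0.632, and Ms4a4c). Of 19 immediate early and heat shock genes 3 were downward (Fos 0.550, Egr1 0.561 and Ier2 0.665) and 0 upward. The median log2 ratio of that list was -0.35, and it ran from -0.35 to -0.17 over the alternatives. These genes also respond to tissue dissociation, whose part was not tested. Of 19 Fc and pattern receptors 1 was upward, Tlr2 at 1.66. Of 20 cell cycle genes 3 passed the filter and 0 were past the fold. Of 11 S100 and granule genes 3 were upward (S100a8, S100a9 and Lcn2) and 1 downward (Prtn3, proteinase 3, 0.609). Of 9 genes listed as overlapping or resembling ribosomal RNA 7 were upward, with a median log2 ratio of 1.24. Gm42418 had 31694 CPM in vehicle and 79445 CPM in ENZ (2.51). Camk1d, the gene the study targets, is in this list and had 1261 CPM in vehicle and 2973 CPM in ENZ. Whether UMIs of the listed genes came from ribosomal RNA was not tested. The list took up 4.66% of the UMIs of vehicle monocytes and 10.3% in ENZ, and Gm42418 was also higher in C1q macrophages (3.04), neutrophils (1.80) and T cells (2.30). With these, mitochondrial and ribosomal protein genes out of the denominator, the median log2 ratio of all genes was 0.06.

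**Figure D4:**
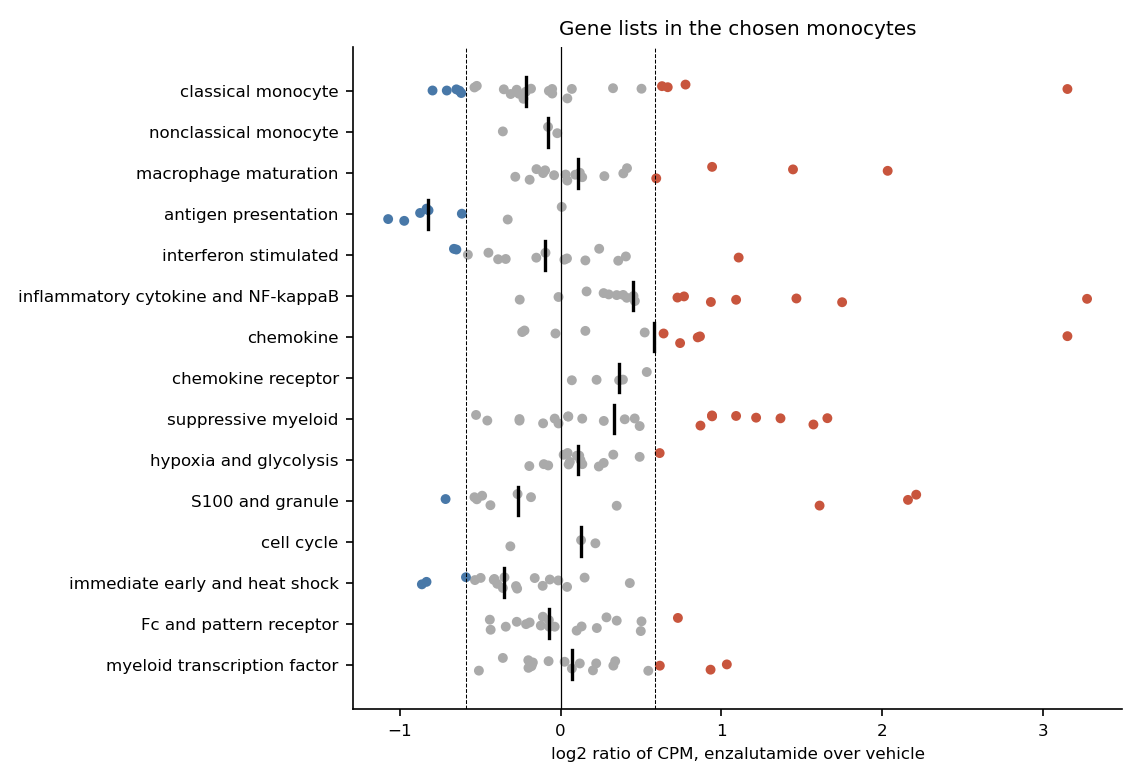
log2 ratio of CPM, ENZ over vehicle (horizontal), for each gene past the filter in 15 gene lists (rows), 1 point per gene, with the list's median as a black bar and dashed lines at 1.5-fold. Antigen presentation lies left of 0 apart from 1 gene at 0, and the chemokine, inflammatory and suppressive lists have points past the line on the right and none past it on the left.

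Outside the lists, Tmem267, a gene for a predicted membrane protein, had 18 UMIs in vehicle (8.98 CPM) and 530 in ENZ (129 CPM), a ratio of 14.3 (8.97 to 24.3). Olr1, the receptor for oxidized LDL, had 22.4 and 109 CPM (4.84, 3.56 to 6.73), and the carboxypeptidase Cpd 38.4 and 162 CPM (4.22). In the gate of Vcan, Ms4a6c and Ccr2 the log2 ratio of Tmem267 was 2.55 in place of 3.84. Lower in ENZ were Htr7, a serotonin receptor gene, at 140 and 53.4 CPM (0.382, 0.319 to 0.458), and Nrg1, the growth factor neuregulin 1, at 662 and 340 CPM (0.514, 0.477 to 0.555). Over all alternatives the log2 ratio ran from 2.55 to 4.65 for Tmem267, from 1.94 to 3.07 for Olr1 and from -1.54 to -0.66 for Htr7. Tmem267, Olr1 and Cpd were also higher in C1q monocyte-macrophages (2.56, 3.29 and 3.63) and less so in C1q macrophages (1.80, 1.67 and 1.92). In vehicle, Tmem267 had 80.9 and 68.3 CPM in these gates. Its 8.98 CPM in vehicle monocytes lay below the 28.2 CPM of vehicle free RNA, so the ratio of 14.3 rests on a very low value.

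S100a8 and S100a9, which encode the 2 chains of calprotectin, rested on few cells. S100a9 had 134 CPM in vehicle and 618 CPM in ENZ (ratio 4.63), and S100a8 141 and 630.3 CPM (4.47). A single ENZ cell of 15651 UMIs held 1471 of the 2550 S100a9 UMIs and 127 of the 134 UMIs of Ngp, a gene of neutrophil precursors, with 101 UMIs of Chil3 and 0 of Retnlg and Csf3r. In vehicle a cell held 146 of 268 S100a9 UMIs. Without the top cell of each library S100a9 had 61.1 and 263 CPM (4.30) and S100a8 121 and 466 CPM (3.86). Among cells with no C1q UMI the log2 ratio of S100a9 was 0.38 in place of 2.21, and among cells with both Ly6c2 and Chil3 it was 4.08. The top ENZ cell had 1 or 2 C1q UMIs and both genes, and the top vehicle cell had no C1q UMI and no Chil3 UMI. Without these 2 cells S100a9 had 60.3 CPM in vehicle and 205 CPM in ENZ among cells with no C1q UMI, and 63.4 and 504 CPM among cells with 1 or 2. The 9 neutrophil markers summed to 468 CPM in vehicle and 1446 CPM in ENZ, with 3 past the filter and S100a8 the most abundant; Ly6g was at 0 in vehicle and 0.485 CPM in ENZ. Free RNA went the other way, with S100a9 at 1194 CPM in vehicle and 426 CPM in ENZ in barcodes of at most 100 UMIs. With the doublets called by scrublet left out, the S100a9 log2 ratio was 2.101; the part of neutrophil RNA within the chosen cells was not tested. Lcn2, an iron-sequestering protein of monocytes and neutrophils, had 48.9 and 149 CPM (3.05, 2.46 to 3.82), and 119 of its 615 ENZ UMIs were in 1 cell.

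The ratios of ENZ to vehicle were set side by side with those of the other gates, which come from the same 2 libraries; no difference between gates was tested. Ccl24 was higher in each, by 4.30 times in C1q monocyte-macrophages, 3.62 in C1q macrophages and 4.59 in neutrophils, beside 8.88 in the monocytes. Saa3 had ratios of 12.7, 85.2 and 5.31 beside 9.66. Cd274 was 1.94 in C1q monocyte-macrophages, 1.66 in C1q macrophages and 0.794 in neutrophils beside 1.92. Spp1 was 1.04, 0.958 and 0.616 in the same order beside 2.32, Cxcl2 1.503, 0.672 and 1.06 beside 1.82, and Il1b 0.716, 0.561 and 0.897 beside 0.839. The class II genes and Plac8 (0.622 and 0.652 beside 0.613) had similar ratios in these cell sets, neutrophils apart.

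The chosen cells were mixed in which gene of the rule they carried. Of the vehicle cells 48 (12.4%) held Ly6c2 without Chil3, 245 (63.3%) held both and 94 (24.3%) held Chil3 without Ly6c2. In ENZ these were 30 (3.90%), 478 (62.2%) and 261 (33.9%). Because the rule asks for 5 UMIs of the pair, a cell with none of one gene has at least 5 of the other, so only other genes are compared. Of 2976 genes, 43 (1.44%) were at least 1.5 times higher and 58 (1.95%) at most 0.667 times as high in cells with Chil3 alone as in cells with both, in both libraries. Of 8 antigen presentation genes 5 were higher and 0 lower, and Cd74 was at 1.86 times in vehicle and 2.85 times in ENZ. Of 18 macrophage maturation genes 4 were higher and 0 lower, among them Mrc1 at 3.44 and 3.24 times. Of 25 classical monocyte genes 1 was higher, Ccl24 at 3.36 and 2.83 times, and 8 were lower, among them Ms4a4c at 0.528 and 0.459 and Hp at 0.593 and 0.487. Of 11 S100 and granule genes 0 were higher and 6 lower, with Lcn2 at 0.129 and 0.322.

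Within these subsets Ccl24 and the class II genes kept the direction of their ratios, and the class II differences were smaller among cells with Chil3 alone. Ccl24 was higher in ENZ by 8.07 times (6.52 to 10.1) among cells with both genes and by 6.80 times (5.67 to 8.21) among cells with Chil3 alone. Cd74 had ratios of 0.458 and 0.702, and H2-Aa of 0.400 and 0.748. H2-Ab1 had 0.414 and 0.622, and H2-Eb1 0.264 and 0.740. Among cells with Chil3 alone H2-Ab1 was past the fold, and Cd74, H2-Aa and H2-Eb1 were short of it. Plac8 had ratios of 0.722 and 0.469. The sign of each ratio was the same in both subsets.

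Ccl24 is also given, as a description, over classes of Chil3, which the rule used; cells with little Chil3 had to hold Ly6c2. Cells with 0 Chil3 UMIs had the least, 7.68 CPM in 48 vehicle cells and 47.0 CPM in 30 ENZ cells. Among ENZ cells with 1 to 9, 10 to 19 and 20 or more Chil3 UMIs, Ccl24 had 900.5, 926 and 1094 CPM. In vehicle the same classes had 156, 68.3 and 49.5 CPM. ENZ was higher in each class. The order of the vehicle classes rests on few cells, since 10 cells held 157 of the 215 vehicle Ccl24 UMIs. Saa3 had 138, 469 and 355 CPM in the ENZ classes and 23.4, 61.7 and 60.5 CPM in vehicle. Cd74 did not keep its direction over these classes. It had 3442 CPM in vehicle and 970.2 CPM in ENZ in cells with 0 Chil3 UMIs, 2390 and 1656 CPM with 1 to 9, 1565 and 1208 CPM with 10 to 19, and 896 and 1026 CPM with 20 or more, where ENZ was the higher. The last class held 30 vehicle and 291 ENZ cells. H2-Ab1 was lower in ENZ in each class, with 566 CPM in vehicle and 366 CPM in ENZ in the last. Across cells thinned to 1000 UMIs, which share a library and a depth, Spearman's rho of Chil3 and Ccl24 was -0.01 in 387 vehicle cells and 0.05 in 769 ENZ cells.

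Cells with Ccl24 more often held Mrc1 and class II transcripts in the ENZ library. There, after thinning, 17.3% of the 191 cells with a Ccl24 UMI held Mrc1 (12.2% to 23.4%) against 2.77% of the 578 cells without (1.59% to 4.46%). The shares were, for Cd74, 62.3% (55.0% to 69.2%) and 27.7% (24.1% to 31.5%) and, for H2-Ab1, 38.2% and 12.8%. The opposite held for Plac8 (55.5% and 79.6%). Saa3 was in 5.76% (2.91% to 10.1%) and 12.5% (9.88% to 15.4%), with intervals that overlap. So within ENZ monocytes, class II transcripts were more frequent in the cells with Ccl24, although across libraries they were lower where Ccl24 was higher. In vehicle 24 cells held Ccl24 after thinning. Plac8 was again less frequent in them (66.7%, 44.7% to 84.4%, against 89.3%, 85.6% to 92.2%), whereas the interval for Cd74 (12 of 24 cells, 29.1% to 70.9%) overlapped that of cells without Ccl24 (43.0%, 37.8% to 48.2%). Spearman's rho of Ccl24 and Cd74 was 0.03 in vehicle and 0.34 in ENZ.

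**Figure D5:**
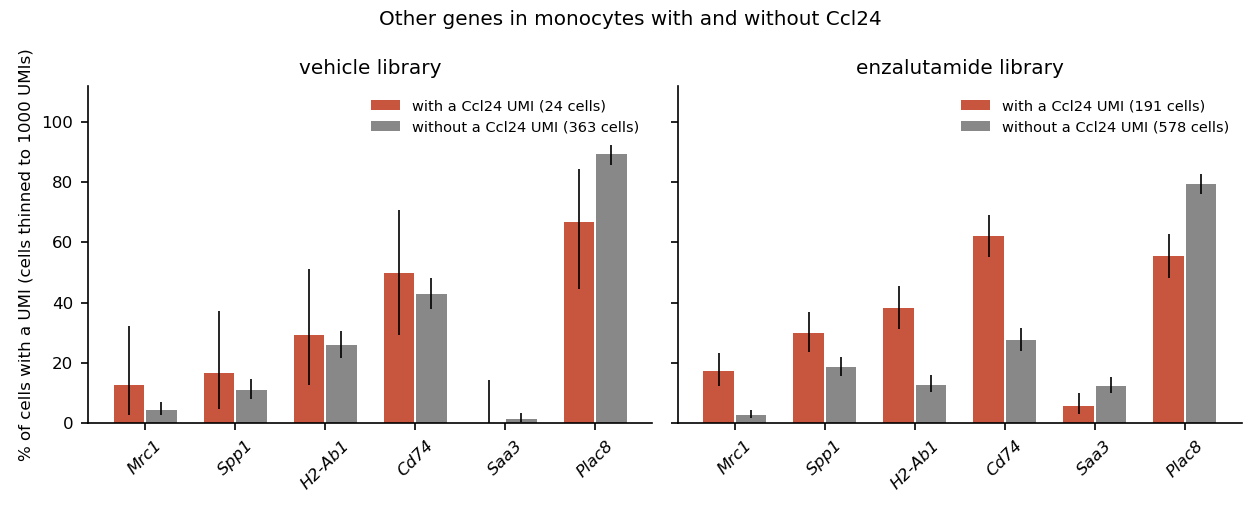
Share of cells with a UMI of each gene (vertical axis, %) after thinning to 1000 UMIs, for chosen cells with (red) and without (gray) a Ccl24 UMI in each library; bars are shares and lines 95% Clopper-Pearson intervals. In ENZ, Mrc1, H2-Ab1 and Cd74 are more frequent in cells with Ccl24, and Plac8 less frequent; the 24 vehicle cells with Ccl24 leave wide intervals.

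Variation from cell to cell was greatest for a few genes. The Fano factor, the variance of thinned counts over their mean, had a median of 1.07 in vehicle and 1.08 in ENZ, close to the value of 1 for random sampling. It was highest, by the lower of the libraries, for S100a9 (16.01 and 44.1), Gm42418 (11.8 and 14.9) and Exoc3l2 (14.8 and 8.66). Exoc3l2 was held by 12 vehicle cells and 32 ENZ cells, and the top 10 cells held 98.6% and 86.6% of its UMIs. Cxcl2 had Fano factors of 6.28 and 6.05, Cd74 6.81 and 4.11, and Rsad2, an interferon-stimulated gene, 4.70 and 4.25, with 110 of 127 vehicle Rsad2 UMIs in 10 cells. Hspa1a, a heat shock gene, had 4.09 and 4.67, and Fth1, the ferritin heavy chain, 4.59 and 5.62.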

How the data were processed

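The files the authors deposited hold UMI counts, not normalized, for each gene in all barcodes, cells or not. The file header names Cell Ranger 7.2.0, whereas the submitters' processing notes name Cell Ranger 2.1.1 and mm10; which one made the counts is not known. Of 32285 gene IDs, 32158 were in GENCODE M21 (GRCm38), used for positions. Barcodes were chosen by the limits given above. CPM carry an exact Poisson interval, a ratio of CPM an exact binomial one conditional on the summed UMIs, and a share a Clopper-Pearson one (all 95%, counting error only). Genes with a mean of at least 50 CPM were counted past the fold at 1.5 or 0.667. The mean is that of both libraries, so a gene below 50 CPM in 1 library can pass through its level in the other. No test was made, because cells are not replicates. Cells were thinned to 1000 UMIs for Fano factors and for shares said to be thinned; other shares and counts of cells with a UMI are unthinned.

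Doublets were left in. Scrublet, run through scanpy 1.11.5, set a threshold that marked 0% of vehicle barcodes, so the ENZ threshold of 0.2496 was used in both, and removal of the marked cells was an alternative. The members and gene lists were chosen with earlier results of these data known. Named genes are those of the lists, the 10 highest and 10 lowest ratios of each comparison (ordered by whichever interval bound lay closer to 1) and the 10 highest Fano factors; the Chil3 classes, the list counts between subsets and the split by Ccl24 were described after values had been seen. Counts were also simulated, as Poisson draws, for the 2976 genes of the monocyte comparison. In them 95.4% of intervals held the true ratio, and 99 of 100 doubled and 100 of 100 halved genes were past the fold. Of the 2776 others 0 were. The intervals assume the same kind of draw, so this result was largely set in advance and checks the calculation only. It does not cover the spread among cells or mice. Mx1, Ero1a and Clec7a were not analysed here, and some genes that the rule names are not reported here. Other software was Python 3.11.15 with scipy 1.17.1, pandas 2.3.3, numpy 2.4.6 and matplotlib 3.10.9.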

Additional observations from a re-analysis of the deposited data

Results flagged for a closer look

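Several genes went past the fold in opposite directions in the monocytes and another gate, and these differences were not tested. S100a9 had an ENZ to vehicle ratio of 4.63 in the monocytes and 0.429 in C1q macrophages. A single ENZ monocyte held 1471 of the 2550 S100a9 UMIs. The C1q macrophage levels, 159 CPM in vehicle and 68.0 CPM in ENZ, lay below those of free RNA, 1194 and 426 CPM. Cxcl3 was 1.81 in the monocytes and 0.450 in neutrophils, Spp1 2.32 and 0.616, and Ifitm6, an interferon-induced membrane protein, 0.576 and 1.98. Cxcl2 was 1.82 in the monocytes and 0.491 in T cells.

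A signal was also found in barcodes of at least 10 and fewer than 500 UMIs, which are outside the chosen cells. In these, Chil3 had 24.7 CPM in vehicle and 160 CPM in ENZ, Ccl24 43.6 and 149 CPM, and Saa3 8.84 and 105 CPM. All 3 were higher in the ENZ library, as in the monocytes. Ccl24 and Saa3 were higher in ENZ in the C1q macrophages too, so the cell type behind these barcodes cannot be told apart.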

How the results depend on the processing

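No paired analysis was possible because only 1 library stands on each side. The genes past the fold (196 higher, 147 lower) became 473 and 304 with a mean of at least 20 CPM, 2844 and 2566 with no filter, and 50 and 8 at a fold of 2, where 86.2% of them were higher against 57.1%. With a denominator free of rRNA-like, ribosomal protein and mitochondrial genes, which brought 3602 genes past the filter in place of 2976, 299 were higher and 150 lower (66.6% higher). Both other gates below were chosen after seeing the data, as was leaving out the cell with most S100a9. With the first, Vcan, Ms4a6c and Ccr2, 81 genes were lower, the medians were 0.18 (classical monocyte), -0.96 (antigen presentation) and 0.25 (chemokine), and the shares were 5.47% in vehicle and 6.82% in ENZ. With Ly6c2 alone the medians were -1.65 (antigen presentation), 0.71 (inflammatory) and 0.77 (chemokine), the shares 1.29% and 2.15%, and the log2 ratio of Il10 turned to -0.0571. The antigen presentation median was -0.51 with at least 10 UMIs of Ly6c2 and Chil3 and -0.61 with no filter. The chemokine median was 0.38 with no C1q UMI and 0.38 with the other denominator, 0.0611 at 20 CPM and -0.11 with no filter. The shares were 3.80% and 8.49% at 2000 UMIs or more, 1.66% and 5.598% with at least 10 UMIs of Ly6c2 and Chil3, and 2.38% and 6.10% with no C1q UMI. The causes of these shifts were not tested. The suppressive list stayed between 0.16 and 0.40, and no setting moved the median of all genes past 0.06. A mean of 50 CPM rests on few UMIs in the smaller vehicle set, which limits the weakest genes named.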
